A study of Homo sapiens with 8 samples.

Results

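The metallothionein genes measured here are MT1E, MT1F, MT1G, MT1H, MT1L, MT1M, MT1X and MT2A, 8 of the 60240 genes in the deposited table, chosen by their symbols with measured values of these data in view. Which measured values led to the choice is not given, so every difference between treatments in these 8 genes is given as a description, without a p-value. RNA was measured by 3′ sequencing in HL-60, an established line of human promyelocytic leukaemia cells labelled WT, in 4 groups of 2 libraries. The first group received decitabine at 100 nM, added on day 0 and again on days 1 and 2. The second received RG3039 once, at 2 µM on day 0, and the third, called the combination, received both drugs. The fourth received the solvent DMSO. All groups were the same line, seeded at 100000 cells/mL in duplicate wells and harvested at 72 h, so the spread between libraries is that between wells of 1 line and may be technical. Decitabine is a deoxycytidine analogue that enters DNA and inhibits DNA methyltransferases, and RG3039 inhibits DcpS, an enzyme that clears the cap remnant of decayed mRNA.

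Metallothioneins are small intracellular proteins that hold zinc, copper and cadmium through clusters of cysteines. They buffer free zinc, take up toxic metals and react with oxidants. When zinc in the cell is high, the transcription factor MTF1 binds metal response elements in metallothionein promoters and raises transcription, and glucocorticoids and oxidative stress are other known inducers. MT2A and most MT1 genes are widely expressed, and in several kinds of tumour MT1G, MT1H and MT1M are known to be silenced with methylation of their promoters. DNA methylation was not analysed here.

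The 8 genes lie together on chromosome 16, between 56608199 and 56684196 of GRCh38, over 76 kb. In GENCODE 29, MT1G is on the minus strand and the others are on the plus strand. MT1L is annotated as a transcribed unprocessed pseudogene, and the other 7 are protein coding. Each of the 7 coding sequences has 186 bases and 61 codons before the stop, of which 20 (32.8%) encode cysteine. Over the 21 pairs, identity lay between 88.7% (MT1F and MT1X) and 95.2% (MT1G and MT2A), with a median of 91.9%. The coding sequences of MT1H, MT2A and MT1E follow, since these genes had the highest fold change among genes with more than 3 DMSO reads, the highest level and the lowest fold change. They are spliced, from GENCODE 29 transcripts on the plus strand of GRCh38, with first and last coding bases at chr16:56669885-56670989, chr16:56608656-56609354 and chr16:56625852-56626971, and capitals mark the cysteine codons.
MT1H: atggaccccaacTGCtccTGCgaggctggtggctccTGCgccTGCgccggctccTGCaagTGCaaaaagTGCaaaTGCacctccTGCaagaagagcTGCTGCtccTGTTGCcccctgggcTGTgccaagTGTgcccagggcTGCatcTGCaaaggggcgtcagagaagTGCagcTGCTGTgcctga
MT2A: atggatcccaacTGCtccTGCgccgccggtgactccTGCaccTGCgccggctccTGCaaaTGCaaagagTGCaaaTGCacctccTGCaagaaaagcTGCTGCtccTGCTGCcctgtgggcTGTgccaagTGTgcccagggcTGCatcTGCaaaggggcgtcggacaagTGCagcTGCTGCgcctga
MT1E: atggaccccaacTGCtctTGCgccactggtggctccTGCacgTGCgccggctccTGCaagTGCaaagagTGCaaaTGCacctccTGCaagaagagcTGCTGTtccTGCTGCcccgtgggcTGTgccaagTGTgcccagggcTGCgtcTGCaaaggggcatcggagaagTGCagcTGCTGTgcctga
MT1H shared 91.9% of its bases with MT2A and 93.0% with MT1E, and MT2A shared 92.5% with MT1E. Reads of 50 bases near the 3′ end could therefore in part match more than 1 gene. Of the 50-base windows in the last 300 bases of each transcript, the share also found in a transcript of another gene was lowest in MT1L (6.37%) and MT1F (9.16%). It was 11.95% in MT1E, 14.3% in MT2A and 19.1% in MT1M. It was highest in MT1H (28.3%), MT1G (28.7%) and MT1X (30.7%). Where the reads fell among these windows is unknown, so the shares do not measure how far the level of a member is uncertain.

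RefSeq promoter windows on GRCh38.p14 were matched by symbol for 3 members, MT1H, MT1X and MT2A. The core of the metal response element was searched as TGCACNC or TGCGCNC on both strands in the 250 bases before the start. MT1H held 8 matches, MT2A 7 and MT1X 4. Of 35114 promoters of the same length, 24.8% held at least 1 match, 0.370% at least 4 and 0.0513% at least 6. The windows of MT1H and MT1X are printed, since of these 3 genes they had the highest and the lowest fold change after the combination. The MT1H stretch is chr16:56669564-56669813 and the MT1X stretch is chr16:56682220-56682423, which stops before the annotated start of MT1X. Both are on the plus strand, with the matches on either strand in capitals.
MT1H promoter: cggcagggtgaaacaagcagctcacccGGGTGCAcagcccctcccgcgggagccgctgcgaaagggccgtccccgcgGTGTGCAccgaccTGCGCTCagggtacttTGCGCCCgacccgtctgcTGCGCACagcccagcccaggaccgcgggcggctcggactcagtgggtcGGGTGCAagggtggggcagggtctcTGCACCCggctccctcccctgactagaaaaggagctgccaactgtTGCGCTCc
MT1X promoter: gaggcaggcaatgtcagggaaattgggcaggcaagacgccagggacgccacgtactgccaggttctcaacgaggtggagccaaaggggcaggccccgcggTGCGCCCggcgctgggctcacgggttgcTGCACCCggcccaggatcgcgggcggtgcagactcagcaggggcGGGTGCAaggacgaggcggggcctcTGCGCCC
In both promoters a pair of matches lies at the same distances, 78 to 72 and 53 to 47 bases before the RefSeq start. The GC box, searched as GGGCGG, had 1 match in MT1H, 2 in MT1X and 2 in MT2A, and 42.6% of promoters held one. The core of the antioxidant response element, searched as TGACNNNGC, had 0 matches in MT1H, 1 in MT1X and 1 in MT2A, and 10.9% of promoters held one. The MT1H and MT1X windows each held 22 CG dinucleotides and the MT2A window 32, against a median of 11 over all promoters. A match is a run of letters and no evidence of binding.

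The estimated depth was 20700000 to 40900000 reads per library, and the deposited values are normalised read counts. Values correlated at 0.952 to 0.957 within groups and 0.890 to 0.954 between groups. Of 8 promyelocyte markers, all were detected, with a summed level of 172081 to 215097 normalised read counts after decitabine, 117958 to 135891 after RG3039, 103228 to 116825 after the combination and 169498 to 207563 in DMSO. The summed level of 12 markers of other cell types was 892 to 1163 after decitabine, 1861 to 2055 after RG3039, 3483 to 3926 after the combination and 703 to 814 in DMSO. Most of it was PECAM1, which myeloid cells also express, while MS4A1, KRT19 and HBB were listed at 0 in each library. With limma, of the 8 promyelocyte markers 2 rose for decitabine, 1 rose and 3 fell for RG3039, and 2 rose and 3 fell for the combination, each against DMSO. Without 1 library these calls numbered 0 for decitabine (DMSO replicate 2 or either decitabine library) and 1 elsewhere, 1 to 3 for RG3039 (1 without RG3039 replicate 2, and 2 without RG3039 replicate 1, DMSO replicate 2 or either combination library), and 3 to 5 for the combination (3 without combination replicate 1). Of the 8 tested markers of other cell types 0 were called for decitabine, where 4 had an unadjusted p under 0.05, while PECAM1 rose for RG3039 and PECAM1, CD3D, CD3E and CD79A for the combination. Without combination replicate 2 only the call of PECAM1 was left of these 4. Over all tested genes, 1.74% were called higher and 0.405% lower for decitabine, and 4.53% and 3.59% for RG3039. For the combination these shares were 11.4% and 12.7%. CD3D and CD3E, which encode chains of the T-cell receptor complex, averaged 82.8 and 67.8 normalised read counts after the combination, against 3.77 and 2.27 in DMSO. Both reached the mean of 10 needed for testing only through treated groups, and their fold changes rest on few DMSO reads. Most of the promyelocyte sum was MPO, with a mean of 148290 in DMSO and 71929 after the combination, while CEBPE and MYB were the 2 that rose for the combination. This sum was lower than in DMSO after RG3039 and the combination, where the metallothionein signal was higher, and overlapped DMSO after decitabine. The sum of the other markers was higher in each treated group, as was the metallothionein signal. The part of either in the metallothionein levels was not tested. In bulk RNA, more cells of a type and more RNA per cell cannot be told apart.

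Metallothionein RNA was higher after each drug than in DMSO, and highest after both. The summed signal of the 8 genes was 22859 ± 648 normalised read counts after decitabine, 27093 ± 1037 after RG3039, 39180 ± 5869 after the combination and 8668 ± 1808 in DMSO (SD, n = 2 each). These means are 2.64, 3.13 and 4.52 times the DMSO mean. As a share of all signal in a library, the genes took 0.0802% and 0.0784% after decitabine, 0.0892% and 0.0944% after RG3039, 0.126% and 0.151% after the combination, and 0.0243% and 0.0308% in DMSO. All 6 treated libraries were above both DMSO libraries, and both combination libraries were above the single-drug libraries.

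MT2A, the most abundant of the 8, encodes the main human metallothionein-2. It had 15059 and 16477 normalised read counts after decitabine, 16438 and 17913 after RG3039, 24247 and 29226 after the combination, and 4402 and 5898 in DMSO. The libraries of the single drugs overlapped each other, with the combination above them and DMSO below. MT1G, a metal-inducible MT1 gene, had 2764 and 2821 after decitabine, 3696 and 3910 after RG3039, 4177 and 5174 after the combination, and 659 and 907 in DMSO. Its 4 groups did not overlap and stood in the order DMSO, decitabine, RG3039, combination. MT1X, another widely expressed MT1 gene, had 1374 and 1404 after decitabine, 2326 and 2534 after RG3039, 3084 and 4247 after the combination, and 880 and 889 in DMSO. MT1F had 696 and 647 after decitabine, 1053 and 1118 after RG3039, 1246 and 1616 after the combination, and 307 and 286 in DMSO. Both genes held the same order as MT1G, also without overlap.

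MT1H was low in DMSO and had the opposite order of the single drugs. It had 328 and 342 normalised read counts after decitabine, 245 and 253 after RG3039, 736 and 746 after the combination, and 12.9 and 12.1 in DMSO. The 4 groups did not overlap, and the libraries of each group lay close together. MT1M, also an MT1 gene that codes for protein, had 47.2 and 36.4 after decitabine, 52.4 and 66.1 after RG3039, 112 and 186 after the combination, and 0 and 1.51 in DMSO. The pseudogene MT1L had 14.8 and 15.6 after decitabine, 28.2 and 30.2 after RG3039, 63.3 and 78.6 after the combination, and 1.51 in each DMSO library. For both genes the groups stood in the order DMSO, decitabine, RG3039, combination without overlap.

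MT1E stood apart from the other 7. It had 2117 and 1575 normalised read counts after decitabine, 2522 and 2002 after RG3039, 1364 and 2055 after the combination, and 1127 and 1952 in DMSO. Its ranges after decitabine and after the combination overlapped DMSO, and only the RG3039 libraries both lay above DMSO, where the lower RG3039 value of 2002 stood close to the higher DMSO value of 1952. The mean in DMSO was 1540 ± 583 (SD, n = 2), the widest relative spread among the members above 100 normalised read counts in DMSO. Over the 8 libraries, the correlation of log2(value + 1) with the mean of the other 7 genes was 0.39 for MT1E and between 0.91 (MT1X) and 0.99 (MT2A) for the others. These points share 4 groups and their libraries, and the correlations are a description.

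**Figure D1:**
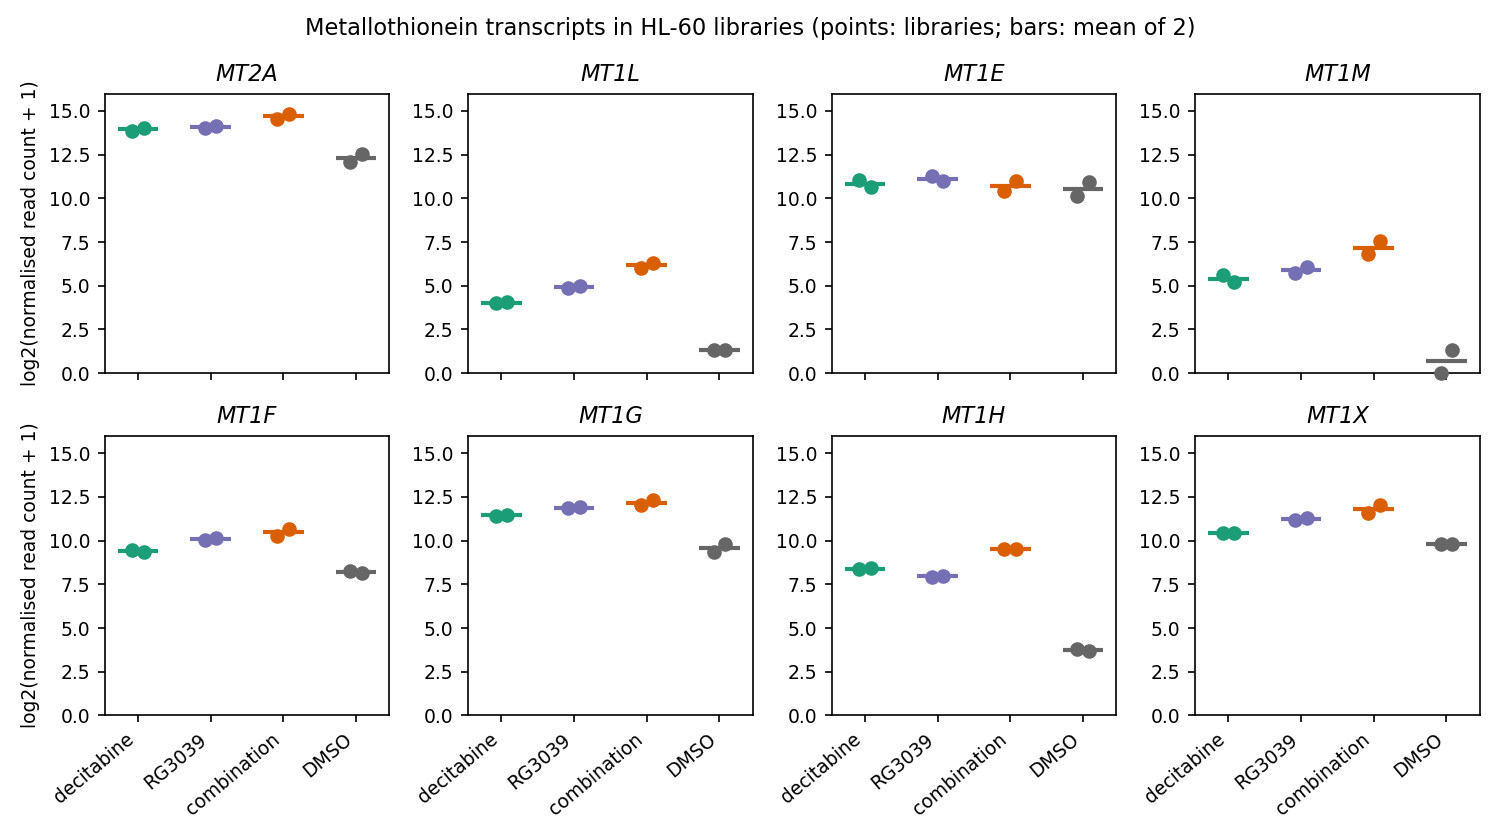
Normalised read counts of the 8 genes on a log2(value + 1) axis, with 1 panel per gene in chromosomal order, points for libraries and bars for the mean of 2. In 7 panels the DMSO points lie below each treated group, while the MT1E points overlap.

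In the comparison of decitabine with DMSO, MT1H had the largest ratio of means among genes with more than 3 DMSO reads, 26.8. MT1G followed at 3.57, MT2A at 3.06 and MT1F at 2.27, with MT1X at 1.57 and MT1E at 1.199. The log2 fold changes were 4.64 ± 0.25 for MT1H, 1.85 ± 0.18 for MT1G, 1.63 ± 0.17 for MT2A, 1.18 ± 0.19 for MT1F, 0.65 ± 0.17 for MT1X and 0.30 ± 0.29 for MT1E (SE of the limma fit, on log2(value + 1)). A gene was called where its adjusted p was under 0.05 among the 17534 genes with a mean of at least 10. Of the 8 members 5 were called higher and 0 lower (MT1F, MT1G, MT1H, MT1M and MT2A), where 1.74% of all tested genes were called higher and 0.405% lower. Decitabine lay above DMSO without overlap for 7 members, where 23.7% of tested genes did. The members' median log2 fold change was 1.74, against 0.01 over all tested genes. MT1L and MT1M passed the filter on low values only through the treated groups, and without them 4 of 6 were called with a median of 1.40. The call of MT1F was lost without decitabine replicate 1, decitabine replicate 2 or DMSO replicate 2, at log2 fold changes of 1.12, 1.23 and 1.13. That of MT1M was lost without decitabine replicate 1 or 2, at 4.56 and 4.93, which left 3 members called in either case.

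In the comparison of RG3039 with DMSO, 7 members were called higher and 0 lower, MT1E being the exception, where 4.53% of tested genes were called higher and 3.59% lower. RG3039 lay above DMSO without overlap for all 8, where 25.8% of tested genes did. The ratio of means was 19.95 for MT1H, 4.86 for MT1G, 3.66 for MT1F, 3.34 for MT2A, 2.75 for MT1X and 1.47 for MT1E. The log2 fold changes were 4.21 ± 0.25 for MT1H, 2.30 ± 0.18 for MT1G, 1.87 ± 0.19 for MT1F, 1.75 ± 0.17 for MT2A, 1.45 ± 0.17 for MT1X and 0.60 ± 0.29 for MT1E. The median over the members was 2.08 and over all tested genes -0.00, and without MT1L and MT1M it was 1.81 with 5 of 6 called. The call of MT1L was lost without RG3039 replicate 1 or 2, at log2 fold changes of 3.64 and 3.54, which left 6 members called.

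In the comparison of the combination with DMSO, the same 7 members were called higher and 0 lower, where 11.4% of tested genes were called higher and 12.7% lower. The combination lay above DMSO without overlap for 7 members, where 32.2% of tested genes did. The ratio of means was 59.3 for MT1H, 5.97 for MT1G, 5.19 for MT2A, 4.83 for MT1F, 4.14 for MT1X and 1.11 for MT1E. The log2 fold changes were 5.78 ± 0.25 for MT1H, 2.59 ± 0.18 for MT1G, 2.39 ± 0.17 for MT2A, 2.26 ± 0.19 for MT1F, 2.03 ± 0.17 for MT1X and 0.17 ± 0.29 for MT1E. The median over the members was 2.49, against 0.04 over all tested genes, and without MT1L and MT1M it was 2.32 with 5 of 6 called. The 7 calls were kept without each of the 8 libraries in turn. The 3 comparisons share the DMSO libraries, so their values are not independent of each other.

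MT1M and MT1L rest on few DMSO reads, and all 8 of their library values came out as whole reads. MT1M had 70 reads after decitabine, 122 after RG3039 and 400 after the combination, against 1 in DMSO, over 2 libraries each. For these genes the ratio to DMSO is that of reads pooled over the libraries of a group and adjusted for depth. For MT1M it was 81.5 (95% interval 14.2 to 3265) for decitabine and 121 (21.3 to 4817) for RG3039. For the combination it was 302 (53.9 to 11967). The ratio of means, the measure given above for the other genes, was 55.4, 78.5 and 198 for MT1M. MT1L had 26, 59 and 188 reads in the same treatments, against 3 in DMSO. Its ratio to DMSO was 10.1 (3.09 to 52.1) for decitabine, 19.5 (6.36 to 97.3) for RG3039 and 47.3 (15.96 to 232) for the combination. The intervals are exact binomial ones and cover counting error only. The fitted log2 fold change of MT1M for the combination was 6.52 with 1 added to each value and 4.71 with 5 added, against 5.78 and 5.42 for MT1H, so the order of these genes depends on the added count.

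**Figure D2:**
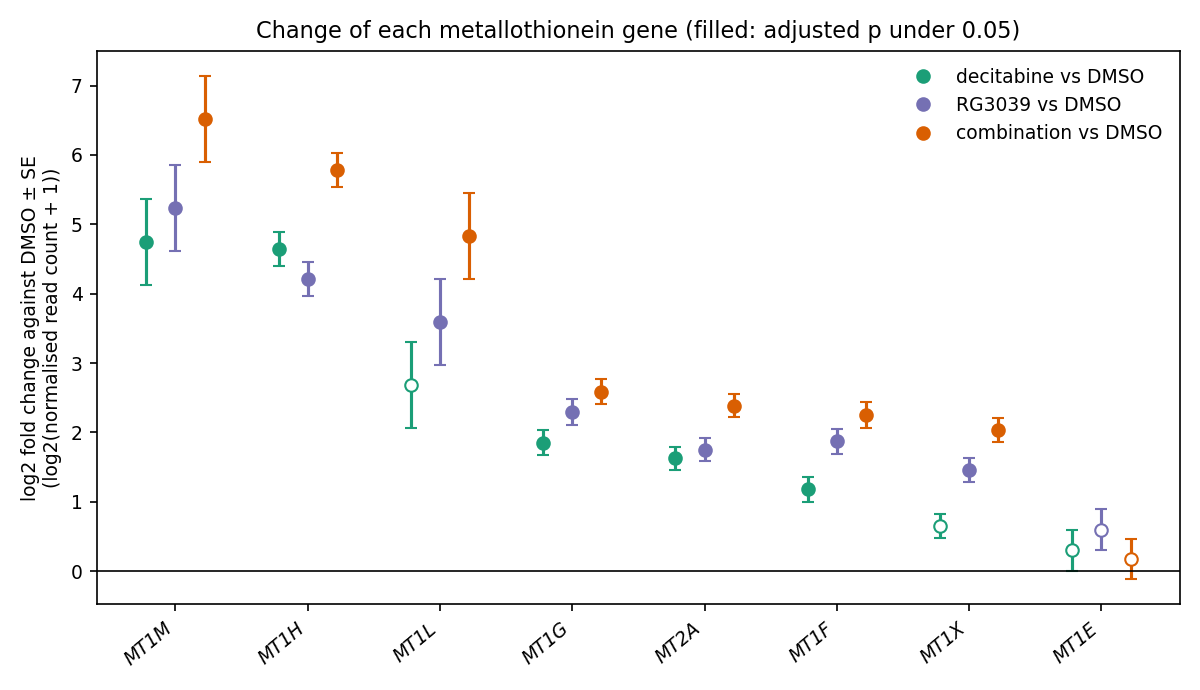
Log2 fold change against DMSO with its SE for each gene and treatment, on log2(normalised read count + 1), with filled points for called genes. MT1H lies at 5.78 for the combination and the MT1E points at 0.60 or below; the MT1M points rest on 1 DMSO read and their height depends on the added count.

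Adding RG3039 to decitabine went with higher levels of most members. Against decitabine alone, the combination was higher without overlap for 7 of the 8 genes, all but MT1E, where 25.7% of tested genes were higher without overlap. The limma fit called 5 of them higher and 0 members lower, where 3.94% of tested genes were called higher and 3.39% lower. The log2 fold changes were 1.38 ± 0.17 for MT1X, 1.14 ± 0.25 for MT1H, 1.08 ± 0.19 for MT1F, 0.76 ± 0.17 for MT2A, 0.74 ± 0.18 for MT1G and -0.12 ± 0.29 for MT1E. MT1X kept its call without each library in turn. Without combination replicate 1, 2 members stayed called, and without combination replicate 2 or either decitabine library 1 did. Without RG3039 replicate 1 or 2, whose spread enters the shared fit, the call of MT1G was lost and 4 members stayed called.

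Against RG3039 alone, the combination was also higher without overlap for 7 genes, where 26.2% of tested genes were, but only MT1H was called, where 1.49% of tested genes were called higher and 0.787% lower. MT1H was 1.57 ± 0.25 higher on the log2 scale, and this call was lost without any 1 of the 4 libraries compared, at log2 fold changes of 1.54 to 1.59. The others were 0.63 ± 0.17 for MT2A, 0.58 ± 0.17 for MT1X, 0.39 ± 0.19 for MT1F, 0.29 ± 0.18 for MT1G and -0.42 ± 0.29 for MT1E.

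Between the single drugs, RG3039 was higher than decitabine without overlap for MT1F, MT1G, MT1L, MT1M and MT1X, where 23.8% of tested genes were higher in this way, and lower without overlap for MT1H, where 24.5% were lower. MT1X was the only member called, where 1.92% of tested genes were called higher and 2.67% lower, at 0.81 ± 0.17, and its call was lost without any 1 of the 4 libraries compared, at 0.74 to 0.87. MT1H was at -0.43 ± 0.25 and MT2A at 0.12 ± 0.17.

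Both single drugs being present, the combination was set against the sum of the single responses on the linear scale, which is decitabine plus RG3039 minus DMSO. The combination came to 0.962 of this sum for MT2A, 0.980 for MT1F, 0.804 for MT1G and 0.666 for MT1E. It came to 1.25 times the sum for MT1X, 1.30 for MT1H, 1.49 for MT1M and 1.65 for MT1L. For the summed signal the ratio was 0.949, and the difference of -2104 normalised read counts was smaller than its SE of 4428. For MT1H the difference was 169 ± 9.67 normalised read counts (SE over 2 libraries per group). This SE rests only on the spread of 2 libraries per group, which lay close together for MT1H. It holds no separate term for counting error and may be too small, so the difference is given as a description.

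On the log2 scale, the test of the interaction asks whether the combination departs from the product of the single fold changes. The estimate for MT1X was -0.07 ± 0.25, and without combination replicate 1 it turned to 0.16. The other estimates were below 0, at -0.72 ± 0.41 for MT1E, -0.79 ± 0.26 for MT1F, -0.99 ± 0.24 for MT2A, -1.56 ± 0.26 for MT1G and -3.07 ± 0.35 for MT1H. The interactions of MT1M and MT1L, -3.46 and -1.45, depend on the count added before taking logs. With limma 0 of 8 members and 0 of 17534 genes were called (0% of those tested). The unadjusted p was under 0.05 for 5 of the 8 members and for 1014 of all tested genes. The members were chosen with measured values of these data in view, so their count is a description. The combination reached 0.508 of the product for MT2A, 0.961 for MT1X and 0.111 for MT1H.

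**Figure D3:**
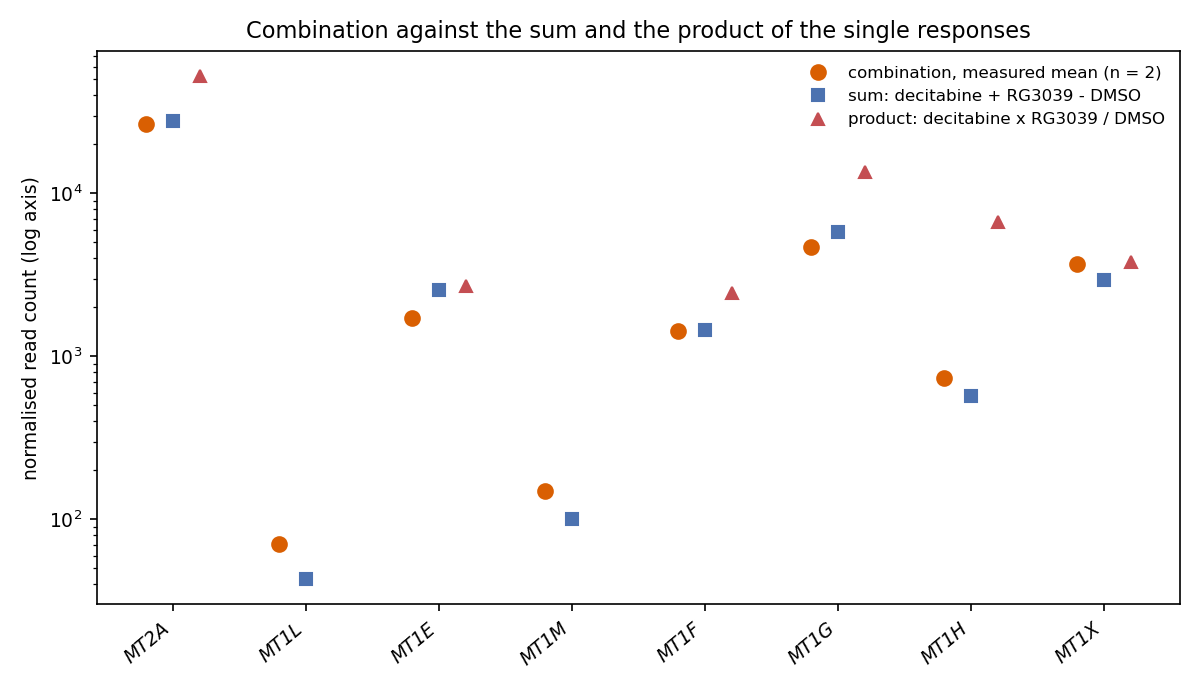
Mean of the combination (circles) beside the sum (squares) and the product (triangles) of the single responses, in normalised read counts on a log axis. The circles lie near the squares, at 0.666 to 1.65 times their height, and below the triangles, which are left out for MT1L and MT1M with 3 DMSO reads or fewer.

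The make-up of the metallothionein signal differed between treated and DMSO libraries. MT2A made up 68.9% of the summed signal after decitabine, 63.4% after RG3039, 68.3% after the combination and 59.4% in DMSO (means of 2). MT1E took 9.45% and 6.75% after decitabine, 9.57% and 7.19% after RG3039, 3.89% and 4.74% after the combination, and 15.3% and 19.6% in DMSO. Each treated library thus held a smaller MT1E share than both DMSO libraries. MT1H held 1.47% after decitabine, 0.919% after RG3039 and 1.91% after the combination, against 0.148% in DMSO. MT1G held 12.2%, 14.0% and 11.9% in the same treatments, against 9.02% in DMSO. These shares are of tags, of which a transcript gives about 1. Divided by transcript length, the share of MT2A was 58.1% after decitabine, 51.8% after RG3039, 56.3% after the combination and 50.0% in DMSO, and it was the highest of the 8 in each group on both scales.

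**Figure D4:**
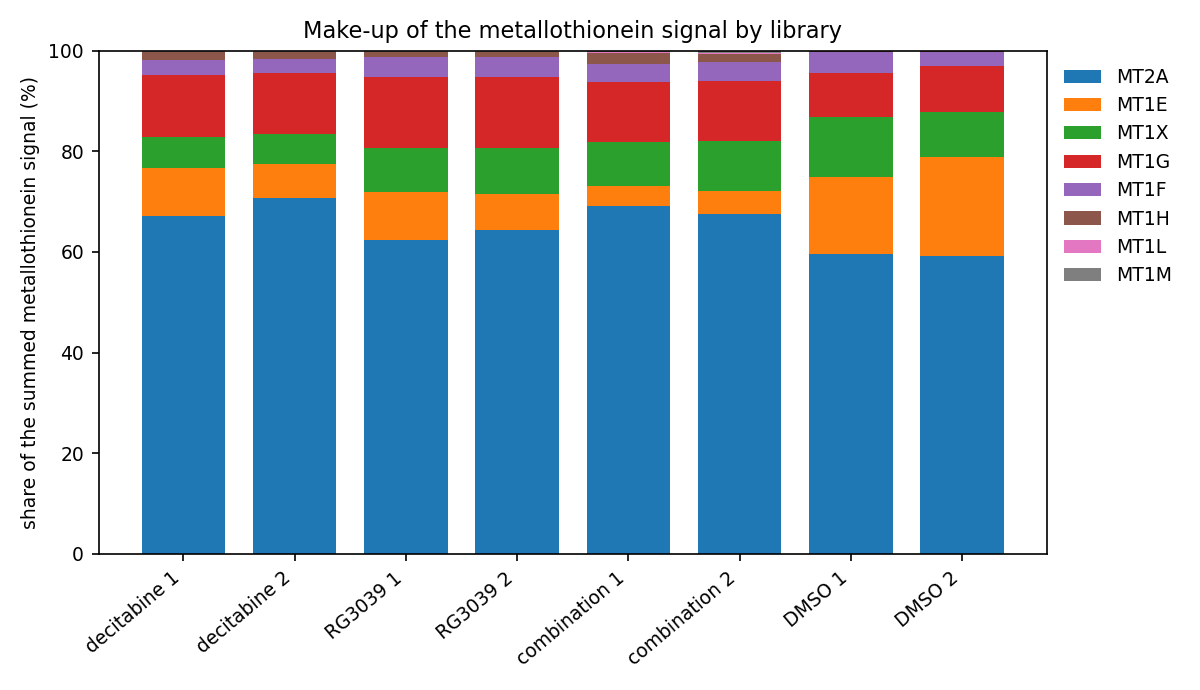
Share of each gene in the summed signal of the 8 metallothionein genes, in percent, as stacked bars with 1 bar per library. The MT1E part is 15.3% and 19.6% in the DMSO bars and 9.57% or less in the treated ones.

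The other metallothionein genes and pseudogenes were close to absent. Of 12 on the list, 11 matched a gene in the table and 0 reached a mean of 10. MT1A lay between 0 and 9.99 normalised read counts over the 8 libraries, and MT3, the metallothionein known from brain, between 0 and 7.27.

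MTF1, the zinc-sensing transcription factor of the metallothionein genes, rose with RG3039 and with the combination. MTF1 and the other listed genes below were chosen with earlier results of these data known, so their p-values are no independent evidence. MTF1 had 1196 and 1259 normalised read counts after decitabine, 2757 and 2940 after RG3039, 2941 and 3216 after the combination, and 1286 and 1060 in DMSO. Its log2 fold change against DMSO was 1.29 ± 0.15 for RG3039 (limma adjusted p = 0.00144) and 1.40 ± 0.15 for the combination (limma adjusted p = 0.000328). For decitabine it was 0.07 ± 0.15 (limma adjusted p = 0.851), and RG3039 was 1.21 ± 0.15 above decitabine (limma adjusted p = 0.00312). Of the 9 tested regulators of metallothionein genes, 0 were called for decitabine with limma, where 2 had an unadjusted p under 0.05, and 2 rose for RG3039 (MTF1 and USF2) and 2 for the combination (MTF1 and NFE2L2). The share of all tested genes called higher was 4.53% for RG3039 and 11.4% for the combination. The call of MTF1 was kept without each library in turn. That of USF2 was lost without any library other than DMSO replicate 1, and that of NFE2L2 without any DMSO, RG3039 or combination library. Their median log2 fold changes were 0.07, 0.29 and 0.43 for decitabine, RG3039 and the combination, against 0.01, -0.00 and 0.04 over all tested genes. The MTF1 values of the decitabine libraries overlapped those of DMSO.

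SLC30A1, the zinc exporter of the plasma membrane and a known MTF1 target, was not called in any comparison. It had 394 and 226 normalised read counts after decitabine, 367 and 313 after RG3039, 267 and 403 after the combination, and 434 and 400 in DMSO. Its log2 fold changes against DMSO were -0.48, -0.30 and -0.34 (SE 0.31; limma adjusted p = 0.446, 0.620 and 0.465). The 7 tested zinc exporters held 0 called genes for decitabine with limma, where 0 had an unadjusted p under 0.05, and for RG3039 and the combination 1 that fell, SLC30A9. The share of all tested genes called lower was 3.59% for RG3039 and 12.7% for the combination. SLC30A9, a zinc transporter of mitochondria, was at -0.99 ± 0.17 for RG3039 (limma adjusted p = 0.00834) and -1.05 ± 0.17 for the combination (limma adjusted p = 0.00228). Without RG3039 replicate 1 the first of these had an adjusted p of 0.0688. The exporters' median log2 fold changes were -0.19 for decitabine, -0.01 for RG3039 and -0.22 for the combination.

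Of 11 tested zinc importers, 0 were called for decitabine and for RG3039 with limma, where 2 and 3 had an unadjusted p under 0.05. Without RG3039 replicate 1, 1 was called lower for RG3039. For the combination 1 rose and 3 fell, and 2 stayed called without either DMSO library or either combination library. Over all tested genes, 11.4% were called higher and 12.7% lower for the combination. The importers' median log2 fold changes were -0.03, -0.00 and -0.30 for decitabine, RG3039 and the combination. SLC39A14 and SLC39A8, which carry zinc, iron and manganese into cells, fell, at -2.03 ± 0.34 (limma adjusted p = 0.00273) and -1.55 ± 0.24 (limma adjusted p = 0.00178). SLC39A4 fell by 0.85 on the log2 scale (limma adjusted p = 0.0275) and the importer SLC39A10 rose by 0.54 (limma adjusted p = 0.0341). Both of these calls were lost without DMSO replicate 1 or 2 or combination replicate 1 or 2, and that of SLC39A10 also without RG3039 replicate 1 or 2. Their highest adjusted p without 1 library was 0.145 for SLC39A4 and 0.175 for SLC39A10.

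Among 15 genes of the metal and oxidative stress response, 1 rose for decitabine, 2 rose for RG3039, and 3 rose and 2 fell for the combination, with medians of 0.20, 0.24 and 0.24. Of all tested genes, 1.74% were called higher for decitabine, 4.53% for RG3039 and 11.4% for the combination, for which 12.7% were called lower. The list thus went both ways for the combination. The 2 that fell were HSPH1, at -1.02 on the log2 scale, and GCLC, and both calls were lost without combination replicate 1. Without combination replicate 1 the 5 calls for the combination fell to 2, and without combination replicate 2 to 3. HMOX1, which encodes heme oxygenase-1, had 29.7 and 34.3 normalised read counts after decitabine, 21.5 and 25.5 after RG3039, 97.4 and 119 after the combination, and 3.03 and 1.51 in DMSO. Its log2 fold change was 3.37 ± 0.57 for decitabine (limma adjusted p = 0.0199), 2.94 ± 0.57 for RG3039 (0.0143) and 5.09 ± 0.57 for the combination (0.000351). HMOX1 passed the filter on low values only through the treated groups, and with 5 added to each value in place of 1 these changes were 2.35, 1.97 and 3.96. The decitabine call was lost without either decitabine library, either combination library or DMSO replicate 2, and the RG3039 call without either RG3039 library or DMSO replicate 2, with adjusted p up to 0.122 and 0.0846. SLC7A11, which imports cystine, rose by 1.39 ± 0.18 for RG3039 (limma adjusted p = 0.00194) and by 1.08 ± 0.18 for the combination (limma adjusted p = 0.00235). HSPA6 also rose for the combination, with a mean of 55.7 normalised read counts against 9.07 in DMSO. Like HMOX1, it passed the filter only through the treated groups. Its call was lost without combination replicate 1 or 2, at log2 fold changes of 2.59 and 2.42.

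**Figure D5:**
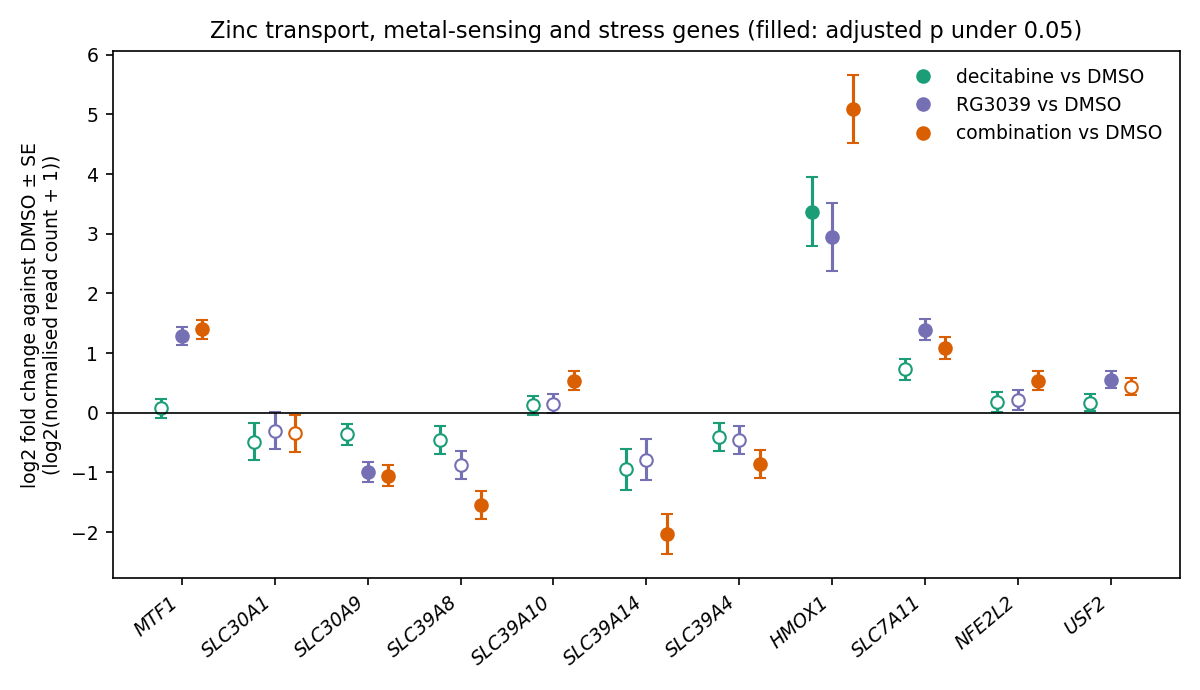
Log2 fold change against DMSO with its SE, on log2(normalised read count + 1), with filled points for called genes. The genes are MTF1 and some of the zinc transporters, regulators and stress genes that the naming rule picked. HSPH1, which fell for the combination, HSPA6 and SLC39A3 were also picked and are not plotted. MTF1 lies near 0 for decitabine and at 1.29 and 1.40 for RG3039 and the combination, and HMOX1 lies highest.

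The genes most like the metallothionein pattern were taken from 15430 other genes with a mean of at least 20, by the correlation over the 8 libraries of log2(value + 1) with the members' mean. They were TPST1 (0.994), PPP1R1B (0.992), HVCN1 (0.992), ZFYVE1 (0.990) and SLC26A8 (0.988), as a description over libraries that share 4 groups. HVCN1, a voltage-gated proton channel, had 1693 and 2076 normalised read counts after decitabine, 2917 and 2764 after RG3039, 4769 and 5187 after the combination, and 416 and 434 in DMSO. PPP1R1B, a phosphatase inhibitor, had 122 and 169 after decitabine, 233 and 210 after RG3039, 953 and 913 after the combination, and 2.28 and 6.06 in DMSO. For both, the 3 treated groups lay above DMSO without overlap and the combination above either drug. This order follows from the choice by correlation and is no separate result. TPST1, with 12.4 and 14.5 normalised read counts in DMSO, and PPP1R1B reached the mean of 20 only through the treated groups.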

How the data were processed

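RNA of 8 HL-60 libraries was made into 3′ tag libraries with the QuantSeq FWD kit and read as 50-base single ends, per the labels' protocols. The authors deposited 1 signal per gene, a normalised read count. The submitters' processing notes name limma, DESeq2, featureCounts, STAR and Salmon 1.2.1, and the build hg38. Which tool made the values, the strand setting and the handling of reads that match several genes are details not given in the sources used here. In each library 74.4% to 80.8% of values worth 20.5 reads or fewer came out whole, within 0.02 of a read, so no count test was run. The value of 1 read was 0.702 to 1.51, from which depth was estimated, and totals of normalised values were 27900000 to 32300000.

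Genes with a mean of at least 10 were tested on log2(value + 1) with R 4.3.3 and limma 3.58.1, using eBayes with its trend, with 1 mean per group and 4 residual and 5.51 prior degrees of freedom. The 7 contrasts were two-sided, with Benjamini-Hochberg adjustment over all tested genes within each. The median SE was 0.322, and 0.456 for the interaction. Members and gene lists were chosen with earlier results of these data known. Named genes are the members, MTF1, SLC30A1, SLC39A10, up to 4 called genes per list and contrast whose groups do not overlap, and the 5 most alike genes. Those not printed in the report are summarised by counts. SOD1, GCLC and MYB, also called for the combination against DMSO, are mentioned besides. Lists of copper, glucocorticoid and neighbouring genes are under the other observations. Coordinates are from GENCODE 29 (GRCh38), matched by Ensembl identifier. Alternatives were other scalings, pseudocounts, filters and variance settings, a replicate block, fits limited to the groups compared, and leaving out each library. Python 3.11.15, pandas 2.3.3, numpy 2.4.6, scipy 1.17.1 and matplotlib 3.10.9 were used.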

Additional observations from a re-analysis of the deposited data

How the results depend on the processing

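With 2 libraries per group, calls of single members can rest on 1 library, and low members on few reads. Of the counts, medians and shares, 322 values stayed within their margin and 69 moved. Each member was compared with the main fit in every contrast and alternative. The other named genes entered only for contrasts in which the main fit called them. Their calls could therefore be lost but not gained, so losses and gains cannot be weighed against each other. In 2148 cases the gene stayed called or stayed not called. In 298 a call was lost, in 9 a call was gained and in 6 the direction turned. The cause was not tested. The number of members called for decitabine against DMSO was 3 in place of 5 with only the groups compared. For the combination against decitabine it was 3 in place of 5 without the trend and 3 without a filter. For the combination against RG3039 it was 2 in place of 1 with libraries scaled to the same total, with quantile normalisation and with the replicate block. For RG3039 against decitabine it was 0 in place of 1 without the trend and without a filter. The members' median log2 fold change for RG3039 against DMSO was 1.87 with a mean of at least 50, in place of 2.08. That of the interaction was -0.99 with a mean of at least 50 and -0.89 with a pseudocount of 5, in place of -1.22. The share of MT2A in DMSO was 59.2% with quantile normalisation, in place of 59.4%.

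Over the gene lists, 3 genes were called for decitabine against DMSO, and 1 without the trend, 7 with the same total, 1 without a filter, 0 with only the groups compared, 6 with quantile normalisation and 7 with the block. For RG3039 against DMSO 15 were called, and 7 without the trend and 6 with only the groups compared. For the combination 35 were called against DMSO and 12 against decitabine, and 23 and 6 without the trend. For RG3039 against decitabine 6 were called, and 3 without the trend. For the combination against RG3039 1 was called, and 3 with robust estimates, 2 with the same total, 2 with a mean of at least 50, 0 without a filter, 2 with only the groups compared, 3 with a pseudocount of 5, 4 with quantile normalisation and 6 with the block.

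Leaving out each library in turn, the members called numbered 3 to 5 for decitabine against DMSO, 1 to 5 for the combination against decitabine, and 0 to 1 for the combination against RG3039 and for RG3039 against decitabine. The members' median was 1.52 to 1.96 for decitabine and 2.33 to 2.71 for the combination, each against DMSO, and 0.42 to 0.79 for the combination against RG3039. Genes called over the lists numbered 0 to 2 for decitabine, 5 to 13 for RG3039 and 19 to 34 for the combination, each against DMSO. They numbered 4 to 13 for the combination against decitabine, 0 to 2 for the combination against RG3039 and 3 to 8 for RG3039 against decitabine. The direction of MT1E turned under some of these. Its log2 fold change ran between -0.10 (without DMSO replicate 1) and 0.70 for decitabine against DMSO. For the combination against DMSO it ran between -0.22 (without DMSO replicate 1; -0.12 without combination replicate 2) and 0.57. For the combination against decitabine it ran between -0.42 and 0.17 (without combination replicate 1; 0.09 without decitabine replicate 1). The interaction of MT1X ran between -0.30 and 0.16 (without combination replicate 1).

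Shared replicate numbers were not taken as a pairing, since not every pair of groups correlated above 0.1. Deviations of same-numbered libraries correlated at 0.0490 for decitabine and RG3039, -0.0767 for decitabine and the combination, 0.0513 for decitabine and DMSO, 0.103 for RG3039 and the combination, 0.117 for RG3039 and DMSO, and 0.161 for the combination and DMSO. With the replicate number as a block, the genes called numbered 525 in place of 376 for decitabine, 1690 in place of 1424 for RG3039 and 4619 in place of 4221 for the combination, each against DMSO.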

Other observations

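Of 18 tested copper handling genes, 1 rose and 6 fell for the combination against DMSO and 11 were not called, where 11.4% of all tested genes were called higher and 12.7% lower. Without combination replicate 2 the calls numbered 2, and without combination replicate 1 they numbered 4. For RG3039 1 rose and 2 fell, with 0 left without either DMSO library or RG3039 replicate 2 and 1 without RG3039 replicate 1, and 0 were called for decitabine with limma, where 3 had an unadjusted p under 0.05. CUTC, a copper-binding protein of the CutC family, averaged 159 normalised read counts after the combination and 614 in DMSO, a log2 fold change of -1.95 ± 0.23 (limma adjusted p = 0.000499). ATP7A, which pumps copper out of cells, averaged 180 after the combination and 41.3 in DMSO (1.98 ± 0.44, limma adjusted p = 0.0108), a call lost without DMSO replicate 1 or combination replicate 2, with an adjusted p up to 0.0883. SOD1, the copper and zinc superoxide dismutase, fell by 0.57 on the log2 scale after the combination (limma adjusted p = 0.0135). This call was lost without combination replicate 2, where those of CUTC and STEAP3 were kept.

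Of 11 tested glucocorticoid-responsive genes, 0 were called for decitabine with limma, where 5 had an unadjusted p under 0.05 and 1 was called without DMSO replicate 2. For RG3039 1 rose and 1 fell, where 4.53% of all tested genes were called higher and 3.59% lower, and 0 were left without RG3039 replicate 1 or 2 and 1 without DMSO replicate 2 or either combination library. For the combination 3 rose and 1 fell, and 3 to 5 were called without each library in turn. FKBP5 fell after the combination (-0.95 ± 0.15, limma adjusted p = 0.00225), while ANXA1 rose (1.95 ± 0.28, limma adjusted p = 0.00119). SGK1 also rose, with a mean of 215 normalised read counts against 28.2 in DMSO (limma adjusted p = 0.00477). So did IL1R2, at 81.6 against 10.4 (limma adjusted p = 0.00932), a call lost without combination replicate 2. Over all tested genes, 11.4% were called higher and 12.7% lower for the combination. Of 11 tested genes that neighbour the metallothionein cluster, 0 were called for decitabine with limma, where 0 had an unadjusted p under 0.05, and 0 for RG3039, where 2 had. For the combination 1 rose and 2 fell, with 1 left without DMSO replicate 1 or combination replicate 2, and CPNE2 was at -0.94 ± 0.18 (limma adjusted p = 0.00444).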
